A study of Mus musculus with 15 samples.

Results

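The 8 genes described here encode liver hormones and the proteins that carry or control them: Fgf21, Angptl4, Angptl6, Creb3l3, Igf1, Igfals, Igfbp1 and Igfbp2. They were chosen by name, with earlier results of these data known, as genes whose liver message is known to follow fasting, insulin or growth hormone. A probe set counted for a gene only where the array annotation gave it exactly 1 symbol, and the brightest probe set was used where a gene had several. All 8 had 1 such probe set, and they make up 8 of the 19938 genes that could be named on the array.

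FGF21 is a hormone that the liver releases in fasting and under amino acid or endoplasmic reticulum stress, and it acts through FGF receptors together with the co-receptor β-Klotho. CREBH, the product of Creb3l3, is a transcription factor held in the endoplasmic reticulum membrane that is cut and released in fasting, and it acts with PPARα on Fgf21. PPARα is the nuclear receptor through which fatty acids, fibrates and peroxisome proliferators switch on fatty acid oxidation in liver, and Fgf21, Angptl4 and Creb3l3 are textbook targets of it. The remaining members belong mostly to a different axis: growth hormone, through its receptor and STAT5, raises hepatic IGF1 and the acid-labile subunit encoded by Igfals, and insulin restrains Igfbp1 through FOXO1.

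The study measured liver RNA of male mice with 1 array per animal, in a crossed design of genotype and treatment. Mice were 7.5 months old (± 2.5 weeks) and were gavaged on 4 days with either corn oil or di(2-ethylhexyl) phthalate (DEHP), a plasticizer and peroxisome proliferator, at 1150 mg/kg/day in corn oil. There were 4 wild-type mice on corn oil (labelled WT_ctr_52 to WT_ctr_55), 4 wild-type mice on DEHP (WT_DEHP 1150_56 to 1150_59), 4 PPARα-null mice on corn oil (KO_ctr_115 to KO_ctr_118) and 3 PPARα-null mice on DEHP (KO_DEHP 1150_121 to 1150_123). Corn oil was thus given to every group. The values of a group are printed in the order of these labels. The nulls carried the Pparatm1Gonz allele in every tissue and came from 129S4/SvJae-Pparatm1Gonz/J stock, while the wild types came from 129S1/SvlmJ stock. Both were bred on as inbred mice of that strain family, and substrain and genotype cannot be told apart. Food was available at all times, while neither the feeding state at collection nor the time since the last dose is stated in the labels.

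Replicate arrays of a group correlated at r = 0.988 to 0.992 over genes, and no pair of arrays was identical. The probe set of Ppara, the targeted gene, was lower in the nulls on corn oil by 0.69 ± 0.12 log2 (SE; adjusted p = 0.00645, limma). Its intensity was 508 to 606 in the 4 null controls against 798 to 943 in the wild-type controls. The position of its probes in Ppara is not stated in the annotation used, so this value does not show how much functional message was left. Albumin, which defines hepatocytes, read 14457 to 15859 over all 15 arrays. In the list of known PPARα and CAR targets, 7 of 11 measured genes rose with DEHP in wild-type mice, among them the fatty acid hydroxylase Cyp4a10 (8.42-fold, adjusted p = 7.2e-07, limma). The same list had 2 rises in the nulls, the CAR-type genes Cyp2b10 and Cyp2c55. Over all genes 3.86% were called with DEHP in wild types and 0.471% in nulls.

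The promoters of 3 members are printed because each holds a known regulatory motif of its axis. Fgf21 and Igfbp1 were called between the genotypes under DEHP, and Igfals was not called in any comparison. Each run is the 250 bases before the annotated RefSeq start in GRCm38.p6, written 5′ to 3′ on the gene's strand. Capitals mark the motif. Fgf21 lies on the minus strand (chr7:45615491-45615740) and holds TTGCATCA, an amino acid response element, at positions -139 to -132 from the start. Igfbp1 lies on the plus strand (chr11:7197537-7197786) and holds CAAAACA, the core of the insulin response element that FOXO factors bind, at positions -108 to -102. Igfals lies on the plus strand (chr17:24877594-24877843) and holds TTCTCAGAA, a match to the STAT element TTCNNNGAA, at positions -236 to -228.
Fgf21: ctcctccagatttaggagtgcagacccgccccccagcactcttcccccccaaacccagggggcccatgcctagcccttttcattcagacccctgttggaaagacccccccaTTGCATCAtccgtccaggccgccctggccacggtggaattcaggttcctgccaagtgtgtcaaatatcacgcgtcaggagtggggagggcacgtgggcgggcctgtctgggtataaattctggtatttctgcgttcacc
Igfbp1: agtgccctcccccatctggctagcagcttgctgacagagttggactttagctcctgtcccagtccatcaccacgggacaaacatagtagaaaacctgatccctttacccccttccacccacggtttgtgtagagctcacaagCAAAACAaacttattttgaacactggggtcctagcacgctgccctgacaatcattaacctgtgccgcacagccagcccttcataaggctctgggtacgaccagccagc
Igfals: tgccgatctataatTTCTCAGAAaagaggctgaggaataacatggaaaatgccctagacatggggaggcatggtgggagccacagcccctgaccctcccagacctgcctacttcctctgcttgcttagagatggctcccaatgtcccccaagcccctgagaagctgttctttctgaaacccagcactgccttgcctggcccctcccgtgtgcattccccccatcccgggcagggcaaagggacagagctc

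Over all 32851 RefSeq promoter windows of this length, searched on both strands, TTGCATCA was found in 0.791%, CAAAACA in 5.56% and TTCNNNGAA in 7.02%. TTCNNNGAA is a palindrome, so each match counts on both strands. A further Igfals window with a later start holds TTCCTAGAA, and CAAAACA also lies in a Creb3l3 window. The element that PPARα binds with RXR, a direct repeat of AGGNCA with 1 free base between the copies, was in 0.338% of all windows and in 0 of the 11 windows of the 7 members that had one. Angptl4 had no window and was not searched. The single site AGGTCA, which can lie inside that repeat, was in 14% of all windows and in 1 window each of Creb3l3, Igf1 and Igfals. A match is a stretch of letters only, and its absence says nothing of sites elsewhere.

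More of the 8 genes were called between genotypes than between treatments. In wild-type mice DEHP gave 0 called members of 8 at an adjusted p under 0.05 (limma, adjusted over all 19938 genes), against 3.86% of all genes, and 2 members, Igf1 and Igfals, were at an unadjusted p under 0.05. In null mice 0 of 8 were called against a background of 0.471%, and again 2, Igfbp1 and Angptl6, were at an unadjusted p under 0.05. The DEHP effect was not called as different between genotypes for any of the 8 (background 0.898%), with Igfbp1 and Igf1 at an unadjusted p under 0.05. On corn oil 1 of 8 was called between genotypes, Igfbp2, against 1.19% of genes, with 5 at an unadjusted p under 0.05. Under DEHP 4 of 8 were called against 10.7% of genes: Fgf21 and Igfbp2 were lower in the nulls, and Igf1 and Igfbp1 were higher.

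The count of non-overlapping groups ran the same way. Under DEHP the null and wild-type arrays did not overlap for 7 of the 8, all but Angptl6, against 20.5% of genes. On corn oil this held for 4 members, Fgf21, Angptl4, Creb3l3 and Igfbp2, all lower in the nulls, against 7.72% of genes in either direction and 3.67% lower. For DEHP against corn oil it held for 1 member in wild-type mice (Igf1; background 11.9%) and 2 in nulls (Fgf21 and Igfbp1; background 9.99%). The median difference of the 8 members was -0.11 log2 with DEHP in wild types (all genes -0.01) and -0.06 in nulls (all genes 0.01). Between genotypes it was -0.18 on corn oil (all genes -0.01) and -0.20 under DEHP (all genes 0.02). The DEHP comparisons and the genotype comparisons share groups, so their values are given side by side and not as independent evidence. Liver is a mixture of cells, and in such bulk RNA fewer cells of a type and less RNA per cell cannot be told apart.

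**Figure D1:**
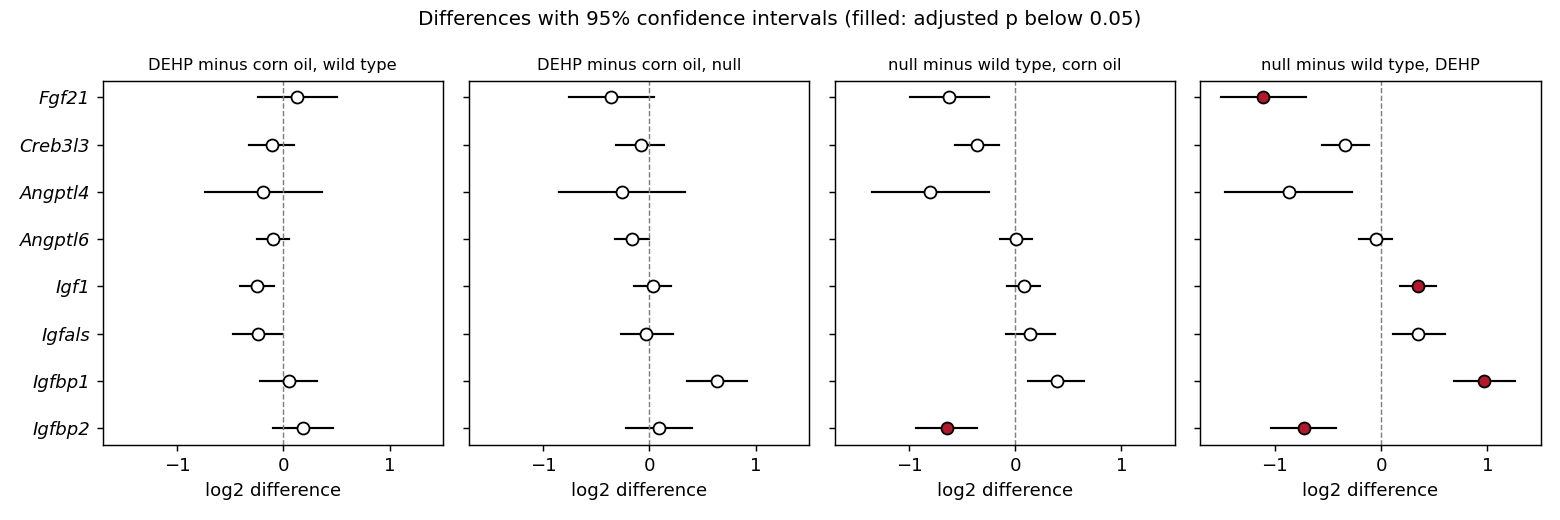
Each panel plots the log2 difference of the 8 genes for 1 comparison on the horizontal axis, with the 95% interval of the limma model as a bar and filled points for genes at an adjusted p under 0.05. No point is filled in the panels of DEHP against corn oil, 1 is filled between genotypes on corn oil (Igfbp2 at -0.64), and 4 stand in the panel of null against wild type under DEHP, from Fgf21 at -1.11 to Igfbp1 at 0.97.

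Fgf21 was lower in the PPARα-null livers, and the gap was widest under DEHP. Its array intensities, in the authors' linear units, were 64.2, 80.5, 117.7 and 70.0 in the wild-type controls and 126, 84.6, 78.7 and 71.9 in the wild types on DEHP. The null controls read 55.4, 51.0, 50.8 and 52.8, and the nulls on DEHP read 45.1, 41.5 and 36.5. Every null array thus lay below every wild-type array, and the 3 nulls on DEHP lay below the 4 null controls. On the log2 scale the group means were 6.34 ± 0.39 (SD, n = 4), 6.46 ± 0.36 (n = 4), 5.71 ± 0.06 (n = 4) and 5.35 ± 0.15 (n = 3).

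Under DEHP the nulls had 0.463 times the wild-type Fgf21 level (95% interval 0.352 to 0.611; log2 difference -1.11 ± 0.19 SE; adjusted p = 0.00132, limma). The call was kept when any 1 animal was left out, with adjusted p from 0.00151 to 0.00825. The null readings of 36.5 to 55.4 lay around the median of all probe sets, which was 44.4 to 47.5 per array, and whether they stood above background was not tested. The fold is therefore a ratio of deposited intensities, and with log2(value + 16) the difference was -0.88 (adjusted p = 0.00202, limma). On corn oil the null level was 0.649 times that of wild types (0.503 to 0.839), and this was not called over all genes (adjusted p = 0.109, limma). DEHP itself gave 1.09 times the control level in wild types (0.845 to 1.41; adjusted p = 0.801, limma), an interval whose upper end was a 1.41-fold rise. That wild-type value depended on single animals: it was 0.31 log2 without WT_ctr_54 and -0.05 without WT_DEHP 1150_56. In nulls the DEHP level was 0.779 times the control level (0.591 to 1.03; adjusted p = 0.468, limma), and the difference between the genotypes' DEHP effects was -0.49 ± 0.26 log2 (adjusted p = 0.439, limma).

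Creb3l3, which encodes CREBH, also had lower values in the nulls, by a smaller factor. Wild-type controls read 1181.5, 1405, 1341 and 1283, and wild types on DEHP read 1137, 1114, 1483 and 1119.6. Null controls read 1128, 941.5, 1034 and 952, and nulls on DEHP read 881, 1081 and 912. Within each treatment the genotypes did not overlap, although the gap under DEHP was small, between 1081 in KO_DEHP 1150_122 and 1114 in WT_DEHP 1150_57. The null level was 0.778 times the wild-type level on corn oil (0.672 to 0.9; adjusted p = 0.103, limma) and 0.792 times under DEHP (0.676 to 0.928; adjusted p = 0.0581, limma). Neither passed the threshold. Without KO_DEHP 1150_122 the value under DEHP was -0.43 log2 and passed it (adjusted p = 0.0465, limma). With all animals it also passed under quantile normalization, aligned array medians, log2(value + 16), the low-level filter and the trended robust variance. The adjusted p in those settings was 0.0267 to 0.0455 (limma). DEHP gave 0.926 times the control level in wild types (0.8 to 1.07; adjusted p = 0.661, limma), a difference of -0.11 log2 that was -0.21 without WT_DEHP 1150_58. In nulls it was 0.944 times control (adjusted p = 0.832, limma).

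**Figure D2:**
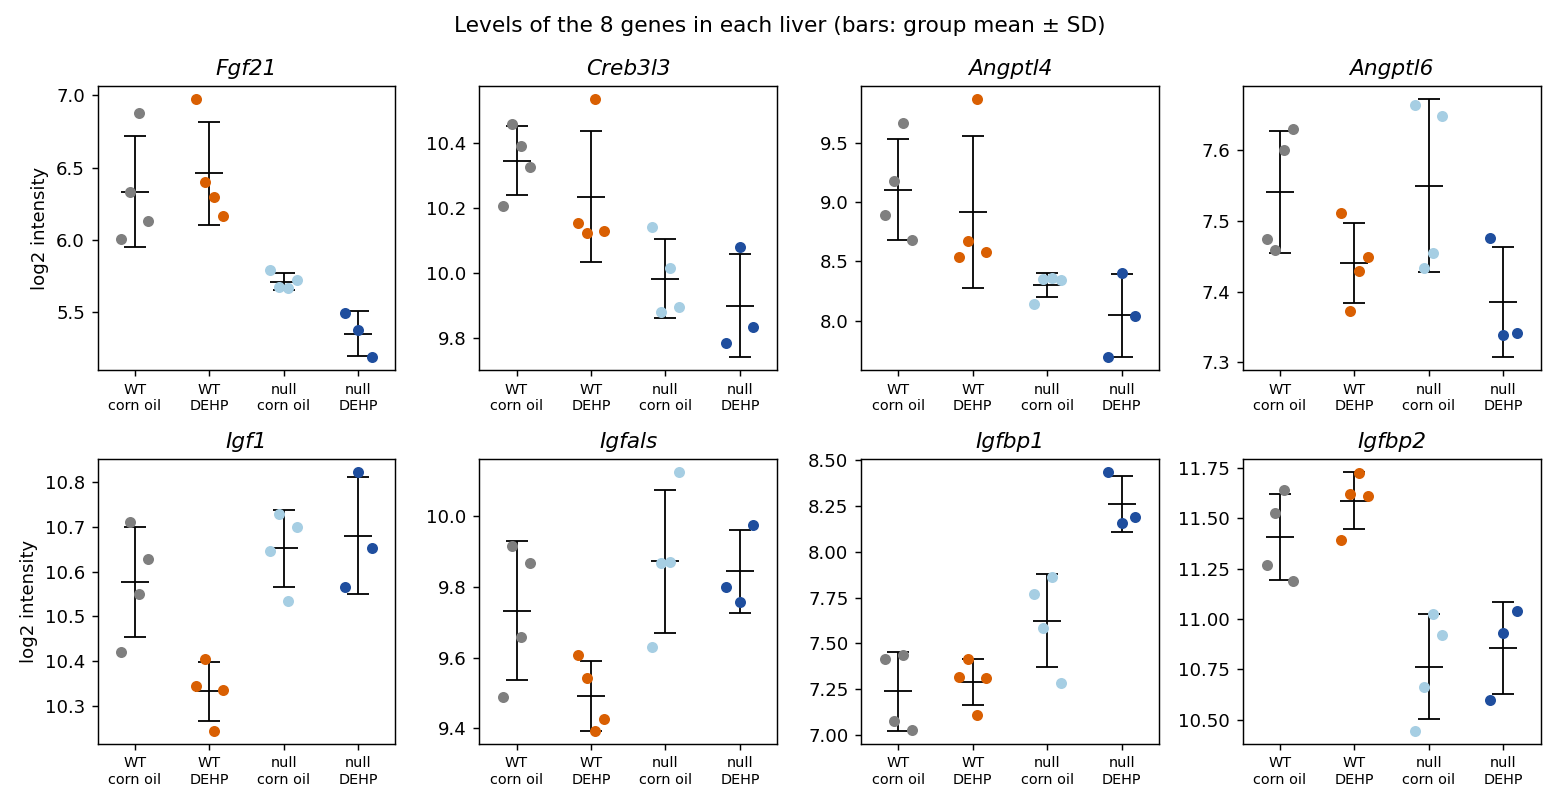
Each panel shows 1 of the 8 genes, with a point for each of the 15 arrays as log2 intensity on the vertical axis and bars at the group mean ± SD (n = 4, or 3 for nulls on DEHP). The vertical axes differ between panels and do not start at 0. In the Fgf21 panel all 7 null points lie below all 8 wild-type points, and in the Igfbp1 panel the 3 nulls on DEHP lie above every other array.

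The upstream regulators of Fgf21 and the amino acid and endoplasmic reticulum stress genes made a list of 16. With DEHP in wild types 1 of 16 rose and 2 fell (median -0.04 log2), against 3.86% of all genes called. None was called in nulls. The riser was Sesn2, a stress-induced regulator of mTORC1 (0.34 ± 0.08 log2, adjusted p = 0.019, limma). That call was kept in 5 of the 8 fits that left out 1 animal. The highest adjusted p was 0.0699, without WT_ctr_53. Sesn2 was also higher in null than in wild-type controls, 1.36-fold (adjusted p = 0.00608, limma), and kept that call without any 1 animal. Under DEHP 2 of the 16 were higher in nulls and 0 were lower, against 10.7% of all genes called. They were Ern1 (1.37-fold, adjusted p = 0.0207, limma) and Trib3 (1.28-fold, adjusted p = 0.0388, limma). Their calls were kept in 4 and 1 of the 7 fits that left out 1 animal. The call of Trib3 was also lost with aligned array medians (adjusted p = 0.0701, limma). Of the 14 measured genes for CREBH processing and CREBH targets, 0 rose and 2 fell with DEHP in wild types, against 3.86% of all genes. The one with the smaller adjusted p was Apoa4, an apolipoprotein of triglyceride-rich particles and a CREBH target, which fell to 0.536 times its control level (adjusted p = 1.86e-07, limma). The other was Nr1d1, which was also counted among the 2 falls of the list of 16. The call of Nr1d1 was kept in 2 of the 8 fits that left out 1 animal. In nulls Apoa4 was at 0.939 times its control level (adjusted p = 0.595, limma), and the difference between genotypes was called (0.81 ± 0.08 log2, adjusted p = 0.000172, limma). Apoa4 was higher in nulls than in wild types, 1.35-fold on corn oil (adjusted p = 0.000476, limma) and 2.36-fold under DEHP (adjusted p = 4.76e-09, limma). On corn oil Pck1 was also higher in nulls (1.66-fold, adjusted p = 0.014, limma). Of the 14, 0 were called lower in nulls under either treatment. Over all genes 1.19% were called on corn oil and 10.7% under DEHP.

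The receptors and feedback genes of FGF signalling were measured for all 11 listed. With DEHP in wild types 2 fell: Spry4, a feedback inhibitor of FGF receptor signalling (0.557 times, adjusted p = 0.0002, limma), and Fgfr3, a receptor (0.762 times, adjusted p = 0.00191, limma). Both kept their calls without any 1 animal. Over all genes 3.86% were called in this comparison. In nulls none of the 11 was called, and the difference between genotypes was not called for either gene (Spry4 0.47 ± 0.15 log2, adjusted p = 0.161; Fgfr3 0.25 ± 0.09, adjusted p = 0.217, limma). Klb, the β-Klotho co-receptor, was 0.692 times as high in null as in wild-type controls (adjusted p = 0.0442, limma). That call was kept in only 1 of the 8 fits that left out 1 animal. The highest adjusted p was 0.136, without KO_ctr_115. Under DEHP 3 of the 11 were higher in nulls, and Fgfr3, at 1.29-fold, had the smallest adjusted p of them (0.00212, limma). Over all genes 10.7% were called between genotypes under DEHP and 1.19% on corn oil.

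Angptl4 encodes a secreted inhibitor of lipoprotein lipase that rises in fasting, and it varied more between animals of a group than any other member. Wild-type controls read 476, 579, 811 and 410.3, and wild types on DEHP read 371, 408, 936 and 383. Null controls read 283, 327, 329 and 324, and nulls on DEHP read 207, 338 and 262. All 7 null arrays lay below all 8 wild-type arrays. The residual SD was 0.43 log2, at the 99.3rd percentile of all genes, whose median was 0.12.

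The null level of Angptl4 was 0.573 times the wild-type level on corn oil (0.391 to 0.84; adjusted p = 0.18, limma) and 0.547 times under DEHP (0.362 to 0.827; adjusted p = 0.0598, limma). Neither was called. DEHP gave 0.877 times the control level in wild types (0.599 to 1.29; adjusted p = 0.8, limma) and 0.837 times in nulls (0.554 to 1.27; adjusted p = 0.794, limma). The wild-type value turned on 1 animal of each group: it was -0.51 log2 without WT_DEHP 1150_58 (adjusted p = 0.191, limma) and 0.00 without WT_ctr_54. WT_DEHP 1150_58 held the highest Angptl4 of its group by a wide margin, and without it the genotype difference under DEHP was -0.55 log2 in place of -0.87.

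Angptl6 encodes a circulating angiopoietin-like protein linked to energy expenditure in mice. Its arrays read 178, 176, 194 and 198 in wild-type controls, 182, 166, 172 and 175 in wild types on DEHP, 203, 173, 175 and 200.5 in null controls, and 178, 162 and 162 in nulls on DEHP. The groups overlapped in every comparison. Its genotype differences were 0.01 log2 on corn oil (adjusted p = 0.982, limma) and -0.05 ± 0.08 under DEHP (adjusted p = 0.745, limma). The level with DEHP was 0.933 times control in wild types (0.842 to 1.03; adjusted p = 0.528, limma) and 0.892 times in nulls (0.799 to 0.997; adjusted p = 0.387, limma). The sign of the corn oil value turned under 3 alternatives (quantile normalization 0.00, array medians aligned -0.01, array weights 0.00).

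Of the 12 measured genes that act with or against angiopoietin-like proteins on lipoprotein lipase, 2 rose and 1 fell with DEHP in wild types. The share of all genes called there was 3.86%. None of the 12 was called in nulls. Lipg, endothelial lipase, rose 2.34-fold (adjusted p = 0.0002, limma) and was at 1.11 times control in nulls (adjusted p = 0.789, limma). The difference between these effects was -1.08 ± 0.22 log2 (adjusted p = 0.0316, limma). That call was kept in 9 of the 15 fits that left out 1 animal. The highest adjusted p was 0.0949, without KO_DEHP 1150_122. Vldlr, the very low density lipoprotein receptor, was 2.03-fold higher in null than in wild-type controls (adjusted p = 0.000239, limma). With DEHP in wild types Vldlr was the other riser, and Apoc3 was the gene that fell. Their calls were kept in 1 and 0 of the 8 fits that left out 1 animal. Of the 3 measured angiopoietin-like genes outside the members, none was called in any of the 5 comparisons.

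Igf1, the growth hormone-driven growth factor, was higher in nulls than in wild types under DEHP, while its lower values with DEHP in wild types did not pass the threshold. Wild-type controls read 1371, 1675.5, 1499 and 1584, and wild types on DEHP read 1300.1, 1355.5, 1212 and 1291. Null controls read 1604, 1697.5, 1483 and 1663, and nulls on DEHP read 1516.5, 1811 and 1609.7. The 4 wild types on DEHP lay below all 11 other arrays. The DEHP level was 0.843 times control in wild types (0.755 to 0.942; log2 difference -0.25 ± 0.08 SE; adjusted p = 0.0869, limma) and 1.02 times in nulls (0.905 to 1.15; adjusted p = 0.932, limma).

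The difference between these DEHP effects on Igf1 was 0.27 ± 0.11 log2 and was not called (adjusted p = 0.284, limma). Under DEHP the null level was 1.27 times the wild-type level (1.13 to 1.44; adjusted p = 0.011, limma). That call was lost without KO_DEHP 1150_122, which had the highest Igf1 of all arrays, at a difference of 0.28 log2 (adjusted p = 0.082, limma). On corn oil the ratio was 1.05 (adjusted p = 0.77, limma). The wild-type DEHP difference passed the threshold under quantile normalization (-0.30 log2, adjusted p = 0.0281, limma), which is 1 of 3 alternatives that called it.

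Igfals encodes the acid-labile subunit that holds IGF1 and its binding protein in a long-lived complex in blood. Its arrays read 719, 966, 807 and 933 in wild-type controls and 779.6, 745, 672 and 688 in wild types on DEHP. Null controls read 791.5, 934, 936 and 1116, and nulls on DEHP read 890.4, 865 and 1007. The wild types on DEHP overlapped their controls but lay below every null array of either treatment. The level with DEHP was 0.847 times control in wild types (0.724 to 0.991; adjusted p = 0.267, limma) and 0.98 times in nulls (adjusted p = 0.954, limma). Under DEHP the null level was 1.28 times the wild-type level (1.08 to 1.51; adjusted p = 0.0647, limma), short of the threshold. It passed with the low-level filter, with only the groups compared and with the trended robust variance (adjusted p 0.0305 to 0.0415, limma). The fold values of Igf1 and Igfals in this comparison were 1.27 and 1.28, and the first was called. For Igfals and the other 4 members whose interaction is not given elsewhere, the difference between the DEHP effects lay between -0.09 log2 (Igfbp2) and 0.21 (Igfals), with adjusted p from 0.621 to 0.962 (limma).

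Of the 23 measured genes of the growth hormone and IGF axis, 0 rose and 1 fell with DEHP in wild types (median -0.04 log2). The share of all genes called there was 3.86%. None of the 23 was called in nulls. The gene that fell was Stat5b, the transcription factor that carries the growth hormone signal in liver (0.758 times, adjusted p = 0.0251, limma). That call was kept in 3 of the 8 fits that left out 1 animal. The highest adjusted p was 0.0859, without WT_ctr_53. Cish, a target of STAT5 that feeds back on its signalling, was at 0.423 times control (log2 difference -1.24 ± 0.37; adjusted p = 0.0802, limma). Between genotypes under DEHP 10.7% of all genes were called. Of the 23, 5 were higher in nulls and 0 were lower, with a median of 0.15 log2 against 0.02 for all genes. They were Insr, the insulin receptor (1.38-fold, adjusted p = 0.00763), Igfbp4 (0.24 log2, adjusted p = 0.0162), Ghr, the growth hormone receptor (1.21-fold, adjusted p = 0.0186), Cish (2.79-fold, adjusted p = 0.027) and Igfbp7 (0.28 log2, adjusted p = 0.0274), all by limma. All 5 calls were lost without KO_DEHP 1150_122, with adjusted p from 0.0505 for Insr to 0.133 for Cish. Of the 7 fits that left out 1 animal, 2 kept the call of Cish, 3 Igfbp7, 5 Ghr, 5 Igfbp4 and 6 Insr. With aligned array medians the calls of Ghr, Igfbp4 and Igfbp7 were also lost (adjusted p 0.0538 to 0.0813, limma). The call of Cish was lost with the trended robust variance (adjusted p = 0.0653, limma), and that of Igfbp4 with quantile normalization (adjusted p = 0.0545, limma). On corn oil 0 of the 23 were called between genotypes, against 1.19% of all genes.

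Igfbp1 encodes a binding protein of IGF1 that rises in blood when insulin is low, and among the members it had the smallest adjusted p between genotypes. Wild-type controls read 171, 135, 173 and 131, and wild types on DEHP read 159.7, 171, 138 and 159. Null controls read 218, 192, 232 and 156, and nulls on DEHP read 346, 285.5 and 292. The 3 nulls on DEHP lay above all 12 other arrays, while KO_ctr_118 at 156 fell within the wild-type range. On the log2 scale the group means were 7.24 ± 0.22 (SD, n = 4), 7.29 ± 0.13 (n = 4), 7.62 ± 0.25 (n = 4) and 8.26 ± 0.15 (n = 3).

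Under DEHP the nulls had 1.96 times the wild-type Igfbp1 level (1.61 to 2.39; adjusted p = 0.00028, limma), and the call was kept without any 1 animal (adjusted p 0.000631 to 0.00193). On corn oil the ratio was 1.31 (1.09 to 1.57; adjusted p = 0.182, limma). DEHP gave 1.55 times the control level in nulls (1.27 to 1.9; adjusted p = 0.0511, limma), a value at the edge of the threshold that passed it under 3 alternatives. In wild types DEHP gave 1.04 times the control level (0.861 to 1.24; adjusted p = 0.899, limma). The difference between these effects was 0.59 ± 0.18 log2 and was not called (adjusted p = 0.145, limma).

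Igfbp2 encodes a second IGF binding protein made by liver, which is known to respond to fasting and to leptin. It was lower in nulls under both treatments. Wild-type controls read 2469.9, 2953, 3196 and 2335, and wild types on DEHP read 2689, 3153, 3391 and 3133. Null controls read 1394, 1618, 2085 and 1936, and nulls on DEHP read 1550.1, 1949 and 2105. All 7 null arrays lay below all 8 wild-type arrays, and within each genotype the treatments overlapped.

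The null level of Igfbp2 was 0.64 times the wild-type level on corn oil (0.525 to 0.78; adjusted p = 0.0251, limma) and 0.601 times under DEHP (0.486 to 0.745; adjusted p = 0.00396, limma). The corn oil call was lost without WT_ctr_53, WT_ctr_54, KO_ctr_115 or KO_ctr_116, with an adjusted p of up to 0.0966, and in a fit of those 2 groups alone (adjusted p = 0.0598). The call under DEHP was kept without any 1 animal (adjusted p 0.00528 to 0.0233). DEHP gave 1.13 times the control level in wild types (0.93 to 1.38; adjusted p = 0.566, limma) and 1.07 times in nulls (adjusted p = 0.863, limma). The 2 binding proteins therefore differed between genotypes in opposite directions under DEHP.

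Genes of the fasting and glucocorticoid response gave 1 rise and 1 fall among 18 measured with DEHP in wild types, against 3.86% of all genes. None of the 18 was called in nulls. The riser was Pdk4, a kinase that spares glucose in fasting and a PPARα target (2.17-fold, adjusted p = 0.0127, limma). Foxo1, through which insulin restrains Igfbp1, fell by 0.27 log2 in wild types (adjusted p = 0.0351, limma). That call was kept in only 1 of the 8 fits that left out 1 animal. The highest adjusted p was 0.117, without WT_ctr_53, and the call was also lost with aligned array medians (adjusted p = 0.0675, limma). In null controls Pck1, the gluconeogenic enzyme of fasting, was 1.66-fold higher than in wild-type controls (adjusted p = 0.014, limma). Its call was kept in 5 of the 8 fits that left out 1 animal, with the highest adjusted p (0.0589) without WT_ctr_54. Pdk4 was 2.03-fold higher in null controls (adjusted p = 0.0433, limma). Only 2 of the 8 fits kept the call of Pdk4, with the highest adjusted p (0.135) without KO_ctr_115. Over all genes 1.19% were called in this comparison. Among 16 other measured genes for secreted liver hormones and their handling, 0 rose and 2 fell with DEHP in wild types, against 3.86% of all genes. Against a share of 10.7% of all genes, 5 were higher in nulls under DEHP. Of these the chemotactic hepatokine gene Lect2 (1.76-fold, adjusted p = 0.000101, limma) and the hepatocyte growth factor gene Hgf (1.57-fold, adjusted p = 0.00477, limma) kept their calls without any 1 animal.

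Several marker sums moved with genotype and treatment beside these values. Between genotypes 10.7% of all genes were called under DEHP and 1.19% on corn oil. With DEHP 3.86% of all genes were called in wild types and 0.471% in nulls. The summed intensity of 8 endothelial markers was 3015 to 3297 in nulls on DEHP and 2353 to 2657 in wild types on DEHP, and 5 of the 8 were called higher. The sum of 8 stellate cell and fibroblast markers was 2583 to 3534 against 2194 to 2313 in the same groups, with 3 of the 8 called higher, and 2748 to 4055 against 2199 to 2519 on corn oil, with 1 called. The sum of 8 measured hepatocyte markers was 64800 to 67310 in wild types on DEHP and 67700 to 72510 over the other groups. Of these 8, 1 was called lower with DEHP in wild types (median -0.08 log2, all genes -0.01). Under DEHP 2 of the 8 were called higher in nulls than in wild types. Of 13 acute-phase genes, 6 rose with DEHP in wild types (median 0.46 log2) and 2 in nulls (median 0.55 log2). The difference between these effects was called for 0 of the 13. The 2 calls in nulls, Orm1 and Orm2, were kept in 3 and 1 of the 7 fits that left out 1 animal. The part of these markers and acute-phase genes in the values of the 8 genes was not tested.

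The Kupffer cell and macrophage sum (8 of 8 measured) was 1581 to 2432 in wild types on DEHP and 2250 to 2659 in nulls on DEHP, with 1 called. The adipocyte sum (6 of 6) was 234 to 371.7 in wild types on DEHP and 169.8 to 210.1 over the other groups, with Fabp4, also a PPAR target, as the only called marker. The defining marker Adipoq read 8.4 to 26 there and 6.4 to 9.5 over the other groups, all below the array medians of 44.4 to 47.5. The neutrophil sum (6 of 6) was 214.5 to 262.6 in wild types on DEHP against 146.5 to 174.2 in their controls, with 1 called. The cholangiocyte sum (5 of 6) reached 485.1 in wild types on DEHP, from 240.6, against 243 to 263.9 in their controls, and none of its markers was called in any of the 5 comparisons. The lymphocyte sum (5 of 6) was 231.9 to 263.2 in null controls against 194.2 to 211 in wild-type controls, with 1 marker called higher. The part of these sums in the values of the 8 genes was likewise not tested.

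In the groups of 4, WT_DEHP 1150_58 and KO_ctr_115 were each the highest or lowest of their group for 6 of the 8 members, and the other animals for 1 to 5. In the group of 3, KO_DEHP 1150_121 was so for 7 members, KO_DEHP 1150_122 for 6 and KO_DEHP 1150_123 for 3. In WT_DEHP 1150_58, 3 members were the highest of the group (Angptl4, Creb3l3 and Igfbp2) and 3 were the lowest (Igf1, Igfals and Igfbp1). Its Ppara value of 1197 was also the highest of the 15.

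**Figure D3:**
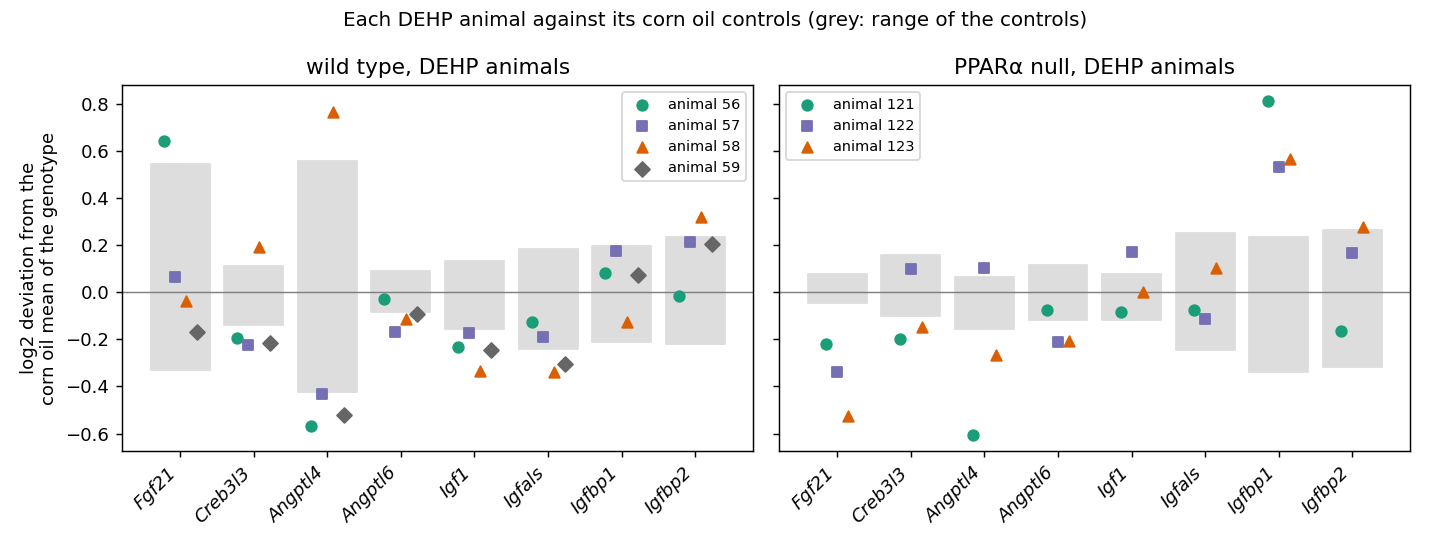
Each point is 1 of the 7 DEHP animals, plotted for each of the 8 genes as log2 intensity minus the mean of the corn oil controls of its genotype on the vertical axis, with wild types in the left panel, nulls in the right panel and the range of the controls in grey. WT_DEHP 1150_58 (orange triangles on the left) lies above the controls for Angptl4, Creb3l3 and Igfbp2, where it read 936, 1483 and 3391. It lies below them for Igf1, Igfals and Angptl6, each time along with another wild type on DEHP or more. All 3 nulls lie above their own controls for Igfbp1 and below them for Fgf21.

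Genes with the most similar pattern were listed as the 3 with the highest Pearson r to each member over the 15 arrays, among genes above the median level. The arrays share their groups, so these are descriptions, and r with the group means removed is given after each. For Igf1 the closest gene was Ghr, the growth hormone receptor (r = 0.925; 0.776), followed by Tgfbr3 (0.912; 0.67) and Rab4a (0.911; 0.703). Angptl4 was closest to Acsm3 (0.909; 0.802), Usp38 (0.875; 0.768) and Ppara itself (0.862; 0.793). Animal 58 of the wild types on DEHP had the highest value of the 15 arrays for both Angptl4 (936.4) and Ppara (1196.9). How far the r between Angptl4 and Ppara rests on that animal was not tested. Fgf21 was closest to Emp2 (0.888; 0.613), the lipid droplet gene Plin5 (0.876; 0.49) and Smim4 (0.876; 0.543). Igfbp2 was closest to Eci2, an isomerase of fatty acid oxidation (0.918; 0.574), the peroxisomal gene Acbd5 (0.915; 0.6) and Slk (0.908; 0.58).

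The other members had neighbours of mixed kinds. Creb3l3 was closest to Ctif (r = 0.915; 0.888), the sterol transporter gene Abcg5 (0.897; 0.676) and Gna12 (0.88; 0.714). Igfbp1 was closest to Itgb5 (0.933; 0.636), Cd81 (0.912; 0.426) and Tuba8 (0.894; 0.707). Igfals was closest to Nox4 (0.911; 0.851), Dhx38 (0.901; 0.841) and Tmem167b (0.893; 0.87). Angptl6, the member with the smallest spread, was closest to Trappc9 (0.85; 0.79), Rbm8a (0.816; 0.687) and Mvb12a (0.806; 0.669).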

How the data were processed

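Single-colour Affymetrix mouse gene arrays measured liver RNA of 15 mice. Per the labels' protocols, RNA was isolated with a mirVana kit and 300 ng was labelled with the Affymetrix WT cDNA kit. The authors deposited linear intensity values for 35494 probe sets, already on a common scale. Neither their normalization nor their software is stated in the labels. Of the probe sets, 21789 had 1 symbol, 1621 several and 12084 none.

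Log2 was taken with no further normalization. In limma 3.58.1 (R 4.3.3) all 15 arrays entered a linear model of the 4 group means, with 11 residual and 4.68 prior degrees of freedom. P-values were adjusted by Benjamini-Hochberg over 19938 genes, and called below 0.05 whatever the fold. The fit was tested on simulated data. Intervals are 95% intervals of the moderated model. The number of arrays limits precision.

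The members and gene lists were chosen with earlier results of these data known. Named genes were the members, Ppara, up to 4 called genes per list and comparison by adjusted p, and 3 similar genes per member. Igfbp7, Adipoq and albumin were named beyond that rule, the last 2 as cell markers. Alternatives were quantile normalization, aligned array medians, log2(value + 16), a filter at the median level, only the groups compared, a trended robust variance, array weights, the mean of a gene's probe sets, and leaving out each animal.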

Additional observations from a re-analysis of the deposited data

Results flagged for a closer look

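In 3 of the 24 member groups of 4 animals, the end animal lay further from its nearest neighbour, as a share of the group's range on the log2 scale, than Dixon's 95% critical value of 0.829. Chance gives this in about 1 of 20 groups. For Angptl4 in wild types on DEHP, WT_DEHP 1150_58 read 936.4, with a gap of 0.898 of the range. For Creb3l3 in the same group, WT_DEHP 1150_58 read 1483.4, with a gap of 0.927. For Angptl4 in null controls, KO_ctr_115 read 283.0, the low end, with a gap of 0.887.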

How the results depend on the processing

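No paired analysis was possible because the groups share no replicate numbers. Leaving out each animal gave 0 called members with DEHP in wild types, in nulls and in the interaction, 0 to 1 between genotypes on corn oil (1 with all animals) and 4 in every case under DEHP (without KO_DEHP 1150_122, Creb3l3 in place of Igf1). Under other settings the count with DEHP in wild types was 1 rather than 0, Igf1, with quantile normalization, the low-level filter, and the trended robust variance. In nulls it was 1 rather than 0, Igfbp1, with log2(value + 16), the filter, and the trended robust variance. On corn oil it was 0 rather than 1 with only the groups compared. Under DEHP it was 7 rather than 4 with the filter, 6 with aligned medians or the trended robust variance, and 4 or 5 otherwise. The members added were Creb3l3, Igfals and Angptl4 with the filter, and Creb3l3 and Angptl4 with aligned medians. With the trended robust variance they were Creb3l3 and Igfals. Creb3l3 alone was added with quantile normalization or log2(value + 16), and Igfals alone with only the groups compared. The filter tests fewer genes. Apart from these, the cause was not tested. For the called genes of the lists, 43 results under the other settings lost the call and 575 kept it.

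Differences that changed sign were Angptl6 between genotypes on corn oil (0.00 with quantile normalization, -0.01 with aligned medians, 0.00 with array weights), Creb3l3 in the interaction (-0.01 with aligned medians) and Angptl4 in the interaction (0.11 with array weights). Leaving out single animals gave ranges across 0 for Igfbp1 (-0.02 to 0.11) and Fgf21 (-0.05 to 0.31) with DEHP in wild types. In nulls this held for Igfbp2 (-0.01 to 0.22), Igf1 (-0.04 to 0.09) and Igfals (-0.11 to 0.06). It also held for Angptl6 on corn oil (-0.03 to 0.05), and in the interaction for Angptl4 (-0.25 to 0.25), Creb3l3 (-0.06 to 0.13) and Igfbp2 (-0.19 to 0.04). Group levels moved by more than 1 SD only with log2(value + 16): Fgf21 in null controls (6.10) and nulls on DEHP (5.83), Angptl6 (7.66, 7.57 and 7.52 in 3 groups) and Igfbp1 in wild types on DEHP (7.43).

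All genes called with DEHP numbered 770 in wild types (433 without WT_ctr_53) and 94 in nulls. The count in nulls was 9 without KO_DEHP 1150_122, 168 without KO_ctr_116, 32 with aligned medians, 287 with log2(value + 16), 427 with the filter, 1 with only the groups compared, 293 with the trended robust variance and 56 with array weights. Interaction calls were 179 (61 without WT_ctr_53, 299 without KO_ctr_116, and 418, 570 and 424 with log2(value + 16), the filter and the trended robust variance). Under DEHP the genotype calls were 2133 (1019 without KO_DEHP 1150_122, 1331 with only the groups compared). On corn oil they were 237 (159 to 230).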
